A study of Danio rerio with 14 samples.

Results

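Chromosome 4 of the zebrafish holds 580 of the 16610 ATAC-seq peaks in a table of 4 groups of adult cardiomyocytes, and 230 of the 6339 peaks in a second table of cardiomyocytes with and without A-Fos. The members were taken by position alone. Peaks that start at 27 Mb or beyond were counted as the long arm, 150 in the first table and 72 in the second, and the rest as the short arm, 430 and 158. ATAC-seq cuts open chromatin with the Tn5 transposase, so a peak is a stretch of accessible DNA. The series asks about AP-1, the Fos and Jun transcription factor, in heart regeneration. The shared table, as the first table is called here, holds 2 libraries of each of 4 groups. Regenerating gata4:EGFP+ cardiomyocytes were sorted for the reporter at 4 days after cryoinjury. Cardiomyocytes with induced overexpression of junba or of junbb, 2 AP-1 subunit genes of the Jun family, came from uninjured hearts at 7 days after induction. Uninjured myl7:nucDsRed+ cardiomyocytes were sorted for a nuclear reporter and serve as the control of all 3. The A-Fos table holds 3 A-Fos (+) libraries, from fish injected with 4-hydroxytamoxifen to switch on A-Fos, a dominant-negative Fos protein, and 3 A-Fos (-) libraries, from fish given the ethanol vehicle. Both A-Fos groups were collected at 4 days after cryoinjury from the wound border, so injury is common to them. Each library pools ventricles of 6 hearts, and the age listed for the fish of every library is 4 to 12 months. The fish that were cryoinjured were males and females. The labels name the overexpression and A-Fos lines only as CM lines, without the promoter or the number of founders.

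The long arm of zebrafish chromosome 4 is an unusual stretch of the genome. It is largely heterochromatic, replicates late, is poor in ordinary protein-coding genes and carries repeats, 5S ribosomal RNA genes and large families of zinc finger and NLR immune receptor genes. It also carries the miR-430 cluster, whose microRNAs clear maternal messenger RNAs in the early embryo, and a region tied to sex in wild strains. The short arm is ordinary euchromatin.

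The values are the authors' normalized counts, corrected for background, scaled and rounded, and called normalized values here. Outside the mitochondrial peak, which held 72.0 to 94.2% of all values, the libraries of the shared table summed to between 721040 and 952851 and those of the A-Fos table to between 291709 and 421003. The number of different whole numbers a library uses is a rough sign of scaling up from fewer reads, not a measure of depth. junba OE replicate 2 used 24 of the values from 1 to 50, A-Fos (+) replicate 3 used 17, and the other 12 libraries used 35 to 50. junba OE replicate 2 also stood apart in where its signal lay, above all in the wide peaks. None of the marker peaks of any cell type lies on chromosome 4. Over the 12 peaks of 11 of 12 cardiomyocyte marker genes the summed value was 503 to 535 in gata4:EGFP+, 400 to 590 in junba OE, 334 to 369 in junbb OE and 1322 to 1509 in myl7:nucDsRed+ libraries. Over the 11 peaks of 9 of 10 endothelial marker genes it was 219 to 239 in gata4:EGFP+, 353 to 361 in junba OE, 573 to 620 in junbb OE and 115 to 116 in myl7:nucDsRed+ libraries. Of the other lists, the epicardial, leukocyte and neural ones were highest in gata4:EGFP+ libraries. The erythroid and thrombocyte list and the smooth muscle list were highest in myl7:nucDsRed+ libraries. The erythroid and thrombocyte sum (2 of 5 genes) was 62 to 74 in gata4:EGFP+, 24 to 33 in junba OE, 41 to 42 in junbb OE and 137 in both myl7:nucDsRed+ libraries. The smooth muscle sum (2 of 5 genes) was 19 to 37, 14 to 20, 19 to 27 and 39 to 58 in the same order. The epicardial sum (4 of 7 genes) was 128 to 144 in gata4:EGFP+, 33 to 48 in junba OE, 60 to 71 in junbb OE and 39 in both myl7:nucDsRed+ libraries, the leukocyte sum (2 of 6 genes) 71 to 76, 18 to 42, 23 to 25 and 20 to 26 in the same order, and the neural gene elavl4 held 26 to 28, 14 to 26, 11 to 14 and 4 to 6. In the A-Fos table myl7 was the one cardiomyocyte marker with a peak, at 17 to 40 in A-Fos (+) and 20 to 31 in A-Fos (-) libraries. The endothelial sum there (2 of 10 genes) was 63 to 72 in A-Fos (+) and 70 to 81 in A-Fos (-) libraries. The leukocyte sum (2 of 6 genes) was 9 to 26 and 19 to 47, and itga2b of the erythroid and thrombocyte list held 1 to 12 and 3 to 21. The epicardial, smooth muscle and neural lists had no peak there. In bulk samples fewer cells with an open site and a less open site in each cell cannot be told apart.

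The long arm had few peaks for its length, and more of them were wide. In the shared table it held 2.94 peaks per Mb over 51.0 Mb, and the short arm 16.0 peaks per Mb over 26.9 Mb. In steps of 5 Mb from the start of the chromosome the numbers of peaks were 80, 83, 89, 76, 64 and 64, then 10, 12, 10, 13, 9, 12, 6 and 7, and 20 and 25 in the last 2 steps. The drop thus lies within the step that holds the arm boundary or at its end, and the far end of the long arm had more peaks than its middle. Of the long-arm peaks 22 of 150, or 14.7%, were 800 bp or wider, against 3.49% of short-arm peaks and 3.08% of peaks on other chromosomes. These 22 peaks made up 61.3% of the length of long-arm peaks and between 65.6 and 81.1% of the long-arm signal of a library, and 16 of them had no gene. The typical long-arm peak was not wide: the median width over all long-arm peaks was 296.5 bp, against 285.5 bp on the short arm and 291 bp elsewhere, and the median of the peaks' mean values was 22.4, against 24.2 and 26.4. Peaks within 500 bp of a start site made up 24.0% of the long arm, 32.8% of the short arm and 34.9% of the other chromosomes. The A-Fos table was alike in density, width classes and start sites: it had 1.41 peaks per Mb on the long and 5.87 on the short arm, 20.8% and 6.33% of peaks at 800 bp or wider, and 22.2% and 44.3% of peaks near a start site. There, however, the long arm had the higher medians, 313.5 bp against 245.5 bp on the short arm and 257 bp elsewhere, and mean values of 34.4 against 26.5 and 28.8. The 2 tables shared sites: 71 of the 150 long-arm peaks of the shared table, or 47.3%, overlapped an A-Fos table peak, and all 72 of the A-Fos table overlapped one of the shared table. The shares on the short arm were 36.3% and 99.4%.

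By the authors' gene assignment, 82 of the 150 long-arm peaks had no gene, 8 a small non-coding RNA gene and 4 another non-coding gene or a pseudogene. A gene called zinc finger in its symbol or description was assigned to 3, and another protein-coding gene to 53. No peak on either arm was assigned to a gene called NLR in the same way, although such genes are numerous on the long arm. Of the 68 long-arm peaks with a gene 55 had a symbol, some of them clone names, so a match by name can miss genes of both kinds. The 3 zinc finger genes were zbed4, znf1093 and znf1063. The small RNA genes were 6 of the miR-430 family, 1 U1 spliceosomal RNA and 1 5S ribosomal RNA gene. On the short arm 203 of 430 peaks had no gene, 8 a small RNA gene and 11 another non-coding gene or pseudogene. A gene called zinc finger, aebp2, was assigned to 1, and another protein-coding gene to 207, which includes genes such as gata3 whose names do not say zinc finger. The boundary itself lies in a gap between 2 peaks without a gene. The last short-arm peak, chr4:26907862-26908932, held 43 and 51 in gata4:EGFP+, 19 and 47 in junba OE, 35 and 22 in junbb OE and 55 and 39 in myl7:nucDsRed+ libraries. The first long-arm peak, chr4:27049324-27049549, held 25 and 34, 6 and 6, 7 and 13 and 7 and 10 in the same groups.

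The long arm took a variable share of a library's signal, while the short arm's share was steadier. Of the summed nuclear values, the long arm held 1.46 and 1.69% in gata4:EGFP+ libraries, 1.39 and 2.32% in junba OE, 1.65 and 1.22% in junbb OE, and 2.24 and 2.05% in myl7:nucDsRed+ libraries. Both myl7:nucDsRed+ libraries were above both gata4:EGFP+ and both junbb OE libraries, and of the 2 junba OE libraries 1 held the highest and the other the second lowest share of the 8. The means were 1.57 ± 0.160% in gata4:EGFP+, 1.86 ± 0.658% in junba OE, 1.44 ± 0.307% in junbb OE and 2.14 ± 0.132% in myl7:nucDsRed+ libraries (SD, n = 2 each). With 2 libraries against 2, the two-sided exact permutation test cannot go below p = 0.333, which it gave for gata4:EGFP+ minus myl7:nucDsRed+ (-0.569 points) and junbb OE minus myl7:nucDsRed+ (-0.706 points). The difference for junba OE minus myl7:nucDsRed+ was -0.284 points (exact p = 1), and that for junba OE minus junbb OE 0.421 points (exact p = 0.667). Over all 4 groups, the exact permutation test of 2520 assignments gave p = 0.390, where the smallest possible p is 0.00952, so no difference beyond the spread between libraries was shown. With the boundary at 30 Mb, beyond the wide peaks described next, the differences were -0.0593 points for gata4:EGFP+, -0.137 for junba OE and -0.0896 for junbb OE. The short arm held 2.15 and 2.00% in gata4:EGFP+, 1.94 and 1.42% in junba OE, 1.86 and 2.01% in junbb OE, and 1.94 and 1.92% in myl7:nucDsRed+ libraries.

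**Figure D1:**
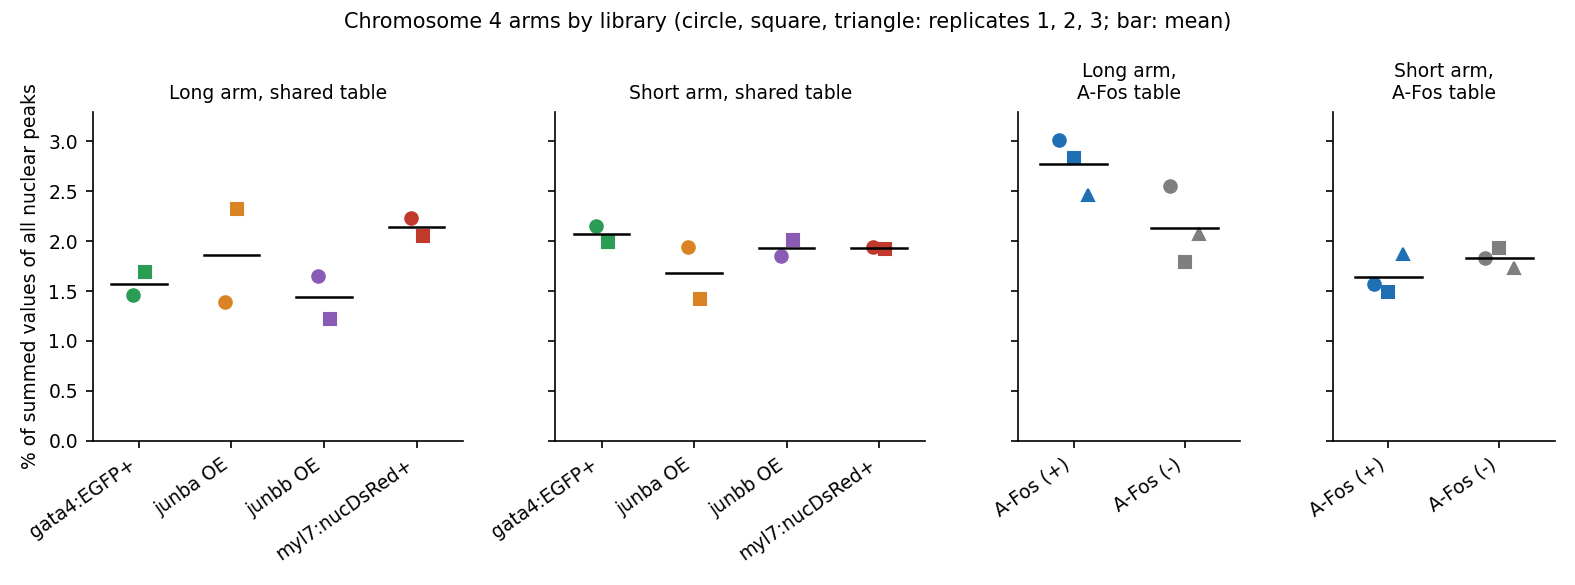
Share of the summed values of all nuclear peaks that lies in long-arm and short-arm peaks of chromosome 4, in percent on the vertical axis, with 1 point per library and a bar at each group's mean. The 2 junba OE libraries lie apart at 1.39 and 2.32% for the long arm, and the 3 A-Fos (+) libraries, at 2.47 to 3.01%, overlap the A-Fos (-) libraries, at 1.79 to 2.55%.

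Most of this variation sat in the wide peaks. The long-arm peaks under 800 bp held 0.419 to 0.490% of the signal in all 8 libraries of the shared table, and the mean shares were 0.446% in gata4:EGFP+, 0.450% in junba OE, 0.444% in junbb OE and 0.460% in myl7:nucDsRed+ libraries. A run of 8 peaks without a gene at chr4:28552868-28617122, which covers 37.4 kb, held 60.5% of the summed long-arm values of the shared table. Its summed value was 6045 and 7560 in gata4:EGFP+, 5095 and 16268 in junba OE, 6676 and 4067 in junbb OE, and 12769 and 12375 in myl7:nucDsRed+ libraries. The gata4:EGFP+ and junbb OE libraries were all below the myl7:nucDsRed+ libraries, and junba OE replicate 2 was above every other library where replicate 1 was near the bottom. The widest peak of the run, chr4:28565799-28577568, spans 11769 bp and held 2341 and 3058 in gata4:EGFP+, 2100 and 7286 in junba OE, 2938 and 1821 in junbb OE and 5506 and 5313 in myl7:nucDsRed+ libraries. Its log2 changes against myl7:nucDsRed+, given as the estimate and SE on the log2(value + 5) scale, were -1.01 ± 0.59 for gata4:EGFP+, -0.47 ± 0.59 for junba OE and -1.22 ± 0.59 for junbb OE, and none passed limma's test (Benjamini-Hochberg adjusted p = 0.241, 0.597 and 0.124). Of the 4 peaks of the run with the highest values, chr4:28594394-28597344 alone passed, in junbb OE (-1.29 ± 0.42, limma adjusted p = 0.024), at 889 and 529 against 1706 and 1667 in myl7:nucDsRed+ libraries. Of the 7 tested peaks of the run, 2 fell in gata4:EGFP+, 1 in junba OE and 4 in junbb OE at a limma adjusted p under 0.05, and no peak of it rose. Wide peaks without a gene on other chromosomes moved with this signal. They held 16.9 and 19.3% of the nuclear values in gata4:EGFP+, 15.3 and 31.9% in junba OE, 18.3 and 11.8% in junbb OE, and 26.5 and 25.5% in myl7:nucDsRed+ libraries. Their part in the long-arm share was not tested.

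The miR-430 cluster lies close to this run. Its 6 peaks, at chr4:28693634-28709640, are assigned to mir430c-3, dre-mir-430a-13, dre-mir-430c-11, dre-mir-430a-2, dre-mir-430a-10 and dre-mir-430b-17. Together they held 380 and 379 in gata4:EGFP+, 276 and 679 in junba OE, 529 and 405 in junbb OE, and 784 and 548 in myl7:nucDsRed+ libraries, so junba OE replicate 2 again stood above replicate 1. The largest, chr4:28693634-28696743, 76 bp from the start of mir430c-3, held 110 and 101 in gata4:EGFP+, 111 and 336 in junba OE, 332 and 276 in junbb OE and 478 and 345 in myl7:nucDsRed+ libraries. Both gata4:EGFP+ libraries and junba OE replicate 1 were about as low as each other, and the other 5 libraries were higher. The peak fell in gata4:EGFP+ (-1.90 ± 0.32, limma adjusted p = 5.04e-04) and in junba OE (-1.05 ± 0.32, limma adjusted p = 0.0182), while the junbb OE change was -0.42 ± 0.32 (limma adjusted p = 0.347). In junbb OE the peak of dre-mir-430a-2 fell, to 12 and 14 against 43 and 43 in myl7:nucDsRed+ libraries (-1.42 ± 0.35, limma adjusted p = 0.00436). The other 4 peaks passed in none of the 3 comparisons. Reads of near-identical copies can be placed at any of them, so the split of signal among miR-430 peaks is uncertain. The peak of the long-arm 5S ribosomal RNA gene, which may share reads with other copies in the same way, held 29 and 34 in gata4:EGFP+, 42 and 128 in junba OE, 47 and 39 in junbb OE and 31 and 56 in myl7:nucDsRed+ libraries and passed in none. On the short-arm side of the boundary a run of 17 peaks without a gene, at chr4:26849182-26908932, held 872 and 895 in gata4:EGFP+, 640 and 891 in junba OE, 825 and 473 in junbb OE, and 1074 and 847 in myl7:nucDsRed+ libraries. Only the junbb OE libraries were both below both myl7:nucDsRed+ libraries.

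**Figure D2:**
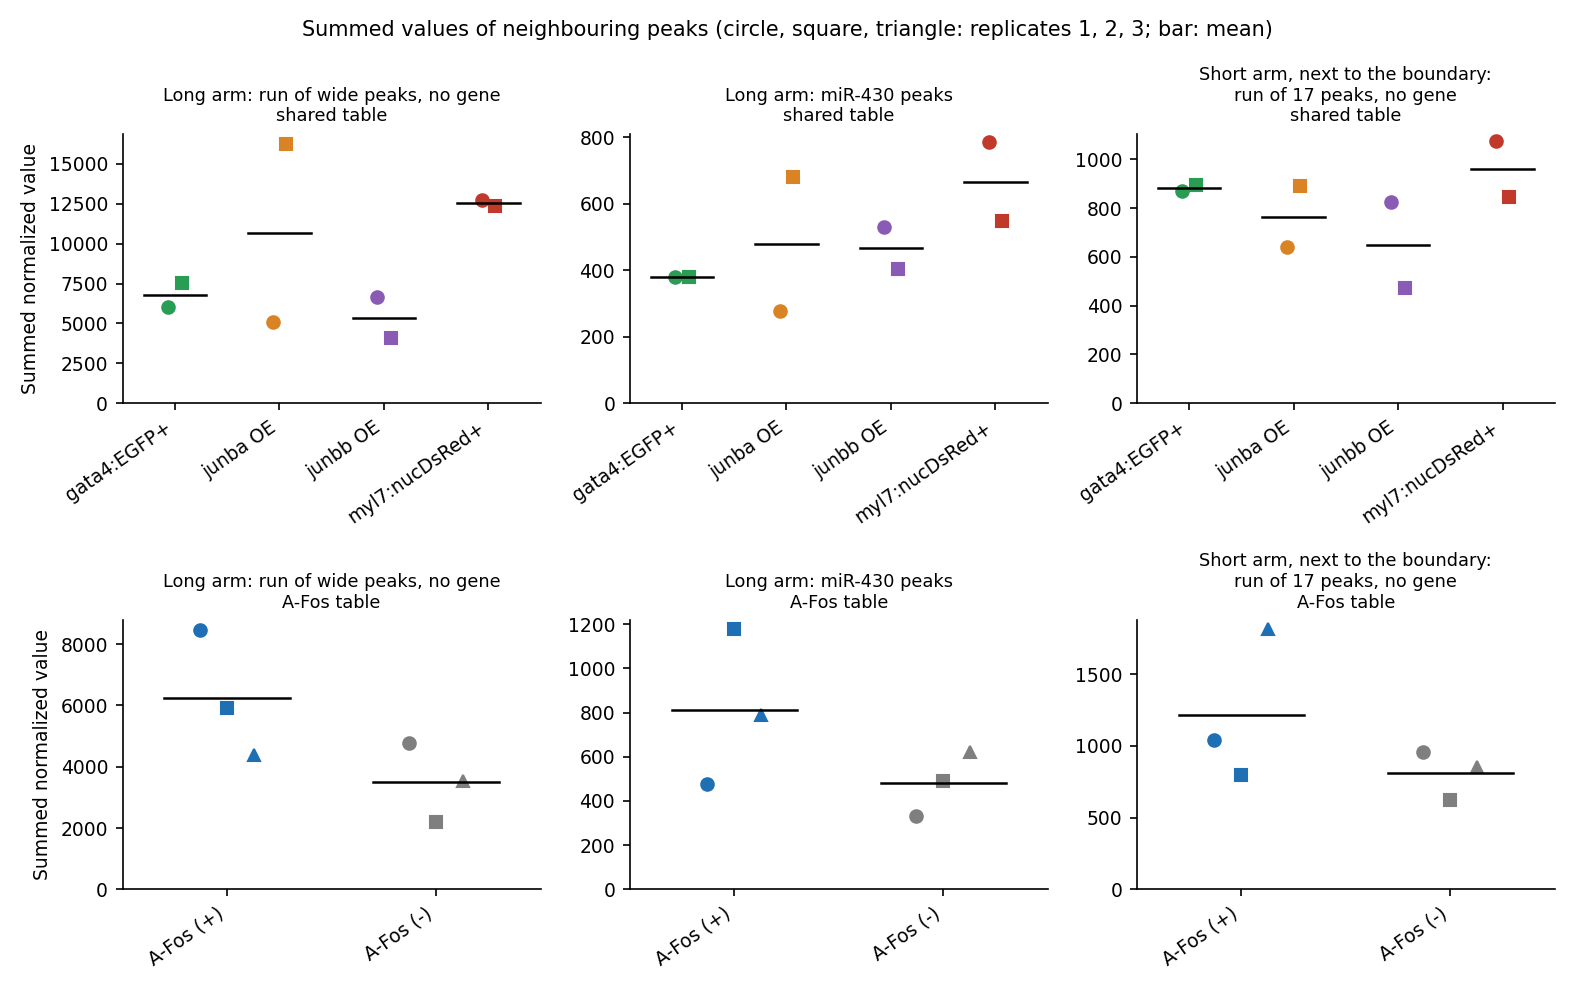
Summed normalized value (vertical axis) of 3 runs of neighbouring peaks, with 1 point per library and a bar at each group's mean, in the shared table above and the A-Fos table below. In the wide long-arm run the junba OE libraries lie at 5095 and 16268, and the miR-430 sums of the A-Fos (+) libraries, 477 to 1176, overlap those of the A-Fos (-) libraries, 334 to 620.

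In regenerating gata4:EGFP+ cardiomyocytes, long-arm peaks beside zgc:173615 and si:dkey-16p6.1 were far less accessible than in uninjured myl7:nucDsRed+ cells, and peaks beside ms4a17a.14 and si:dkeyp-53e4.2 more. Of 126 tested long-arm peaks 11 rose and 20 fell, and 95 did not pass, at a limma adjusted p under 0.05. Over all 14776 tested peaks of the table, 18.9% were called, 12.3% higher and 6.61% lower, beside 8.73% higher and 15.9% lower on the long arm. Of 371 tested short-arm peaks 45 rose and 42 fell. The median log2 change was -0.22 on the long arm, -0.17 on the short arm and -0.06 over all peaks. Scaling all libraries to equal totals raised the median of all peaks to 0.15 and that of the long arm to -0.02, and gave 14 higher and 13 lower on the long arm and 53 higher and 15 lower on the short arm. The balance of rises and falls on either arm thus depends on the scaling, and so does that of all peaks, at 2163 higher and 300 lower with equal totals. Rises made up 35.5% of the long-arm, 51.7% of the short-arm and 65.0% of all calls before that scaling. With equal totals they made up 51.9%, 77.9% and 87.8%. The long arm had the smallest part in both, but these parts include calls that come with the filter on mean values, given below. Of the calls, 3 of 11 rises and 6 of 20 falls on the long arm held when any 1 library was left out, and the number called was 11 and 13 without gata4:EGFP+ replicate 1 and 2, and 19 without either myl7:nucDsRed+ replicate. For the short arm the same omissions gave 18, 19, 40 and 41. Some called peaks reached the mean of 10 needed for testing only through the group where they were high. They were 18 of the 45 rises and 2 of the 42 falls on the short arm. On the long arm they were 1 of 11 rises and 1 of 20 falls. Over all peaks they were 803 of 1818 rises (44.2%) and 94 of 977 falls (9.62%). Such calls come in part with the filter. The 2 groups were sorted on different reporters, so injury and the sorted population cannot be told apart. Endothelial, epicardial, leukocyte and neural marker peaks, given above, were higher in gata4:EGFP+ than in myl7:nucDsRed+ libraries. Cardiomyocyte, erythroid and thrombocyte, and smooth muscle marker peaks were lower. The part of these marker peaks in the changes was not tested.

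The peak 1519 bp from the start of zgc:173615 (ENSDARG00000113780, chr4:69076925-69077123) held 20 and 18 in gata4:EGFP+ and 198 and 238 in myl7:nucDsRed+ libraries, a log2 change of -3.21 ± 0.33 (limma adjusted p = 7.52e-06). The groups were far apart, at 19 ± 1.41 and 218 ± 28.3 (mean ± SD, n = 2). At si:dkey-16p6.1 (ENSDARG00000098515, chr4:42411726-42411946) both gata4:EGFP+ libraries were listed at 0, against 57 and 36 in myl7:nucDsRed+ libraries (limma adjusted p = 4.00e-04). At si:ch211-226o13.1 (ENSDARG00000087714, chr4:43695219-43695597) the values were 1 and 0 in gata4:EGFP+ and 38 and 30 in myl7:nucDsRed+ libraries (limma adjusted p = 7.71e-04). Both peaks were thus near or at the floor in gata4:EGFP+ libraries. A 227-bp peak without a gene, chr4:42760604-42760831, held 8 and 9 against 79 and 72 (-2.58 ± 0.46, limma adjusted p = 8.21e-04), and the peak of si:ch211-266c8.1 held 4 and 9 against 62 and 36 (-2.22 ± 0.45, limma adjusted p = 0.00215). The call of si:ch211-266c8.1 was lost without gata4:EGFP+ replicate 1. The highest-valued long-arm peak with a gene, 1956 bp from the start of ENSDARG00000115819 (chr4:55759214-55760904), also fell. It held 323 and 404 in gata4:EGFP+ and 762 and 801 in myl7:nucDsRed+ libraries (-1.10 ± 0.23, limma adjusted p = 0.00263).

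Among the rises, the peak at the start of ms4a17a.14 (ENSDARG00000094809, chr4:76575452-76575779), a gene of the MS4A family of membrane proteins, held 52 and 65 in gata4:EGFP+ and 6 and 4 in myl7:nucDsRed+ libraries. Its log2 change was 2.67 ± 0.35 (limma adjusted p = 8.32e-05). A wide peak of 1069 bp without a gene, chr4:64677489-64678558, held 84 and 102 against 14 and 17 (2.25 ± 0.43, limma adjusted p = 0.00143). At si:dkeyp-53e4.2 (ENSDARG00000095440, chr4:43408268-43408439) the values were 29 and 28 in gata4:EGFP+ and 5 and 1 in myl7:nucDsRed+ libraries (2.11 ± 0.42, limma adjusted p = 0.00191). These 3 rises held under every omission of a library. Those of si:rp71-5o12.3 (39 and 58 against 2 and 24, 1.89) and of the peak chr4:77941235-77941577 (37 and 25 against 14 and 0, 1.86) did not: the first was lost when gata4:EGFP+ replicate 2 or, of the myl7:nucDsRed+ libraries, replicate 1 was left out, the second with any of the 4 libraries out but myl7:nucDsRed+ replicate 1.

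The 3 largest short-arm rises of gata4:EGFP+ libraries reached the mean of 10 needed for testing only through the gata4:EGFP+ libraries, so low values elsewhere come with the choice, and their values are given without a test. A peak without a gene, chr4:17375743-17376282, held 78 and 119 in gata4:EGFP+, 7 and 14 in junba OE, 7 and 11 in junbb OE and 5 and 9 in myl7:nucDsRed+ libraries. A peak of pcloa, the gene of the presynaptic protein piccolo, held 58 and 75, 1 and 0, 7 and 0 and 3 and 7 in the same groups. A peak within ano6, the gene of a lipid scramblase, held 38 and 42 in gata4:EGFP+ libraries and 2 and 0, 4 and 3 and 0 and 2 in the others. Falls were named at gpr22a, an orphan G protein-coupled receptor gene, with 14 and 19 in gata4:EGFP+ and 81 and 82 in myl7:nucDsRed+ libraries (-2.02 ± 0.38, limma adjusted p = 0.00126), at chr4:10697230-10697554, without a gene, with 16 and 18 against 51 and 82 (-1.67 ± 0.41, limma adjusted p = 0.00669, lost without either gata4:EGFP+ library or myl7:nucDsRed+ replicate 2), and at chchd3a, which encodes a protein of mitochondrial cristae, with 14 and 12 against 52 and 64 (-1.80 ± 0.40, limma adjusted p = 0.00354, lost without gata4:EGFP+ replicate 2). The largest called short-arm fall, at chr4:25429167-25429503, without a gene, held 0 and 0 in gata4:EGFP+ and 20 and 16 in myl7:nucDsRed+ libraries (-2.20 ± 0.65, limma adjusted p = 0.0223). Its call was lost whichever of the compared libraries was left out. Most short-arm runs of neighbouring peaks were lower in gata4:EGFP+ than in myl7:nucDsRed+ libraries or overlapped. That at chr4:1584301-1619985 held 96 and 92 against 149 and 157, and that at chr4:4544646-4583146 held 96 and 85 against 121 and 55. The exception was a run of 12 peaks at chr4:11608318-11691509. Its summed value was 598 and 477 in gata4:EGFP+, 239 and 194 in junba OE, 287 and 240 in junbb OE, and 367 and 382 in myl7:nucDsRed+ libraries. One of its peaks, chr4:11637271-11637621 near si:dkey-146n1.4, rose to 109 and 72 in gata4:EGFP+, against 49 and 27 (1.17 ± 0.34, limma adjusted p = 0.0186), while another, chr4:11682858-11683220, fell to 25 and 17, against 86 and 92 in myl7:nucDsRed+ libraries (-1.87 ± 0.40, limma adjusted p = 0.00277, lost without gata4:EGFP+ replicate 2).

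**Figure D3:**
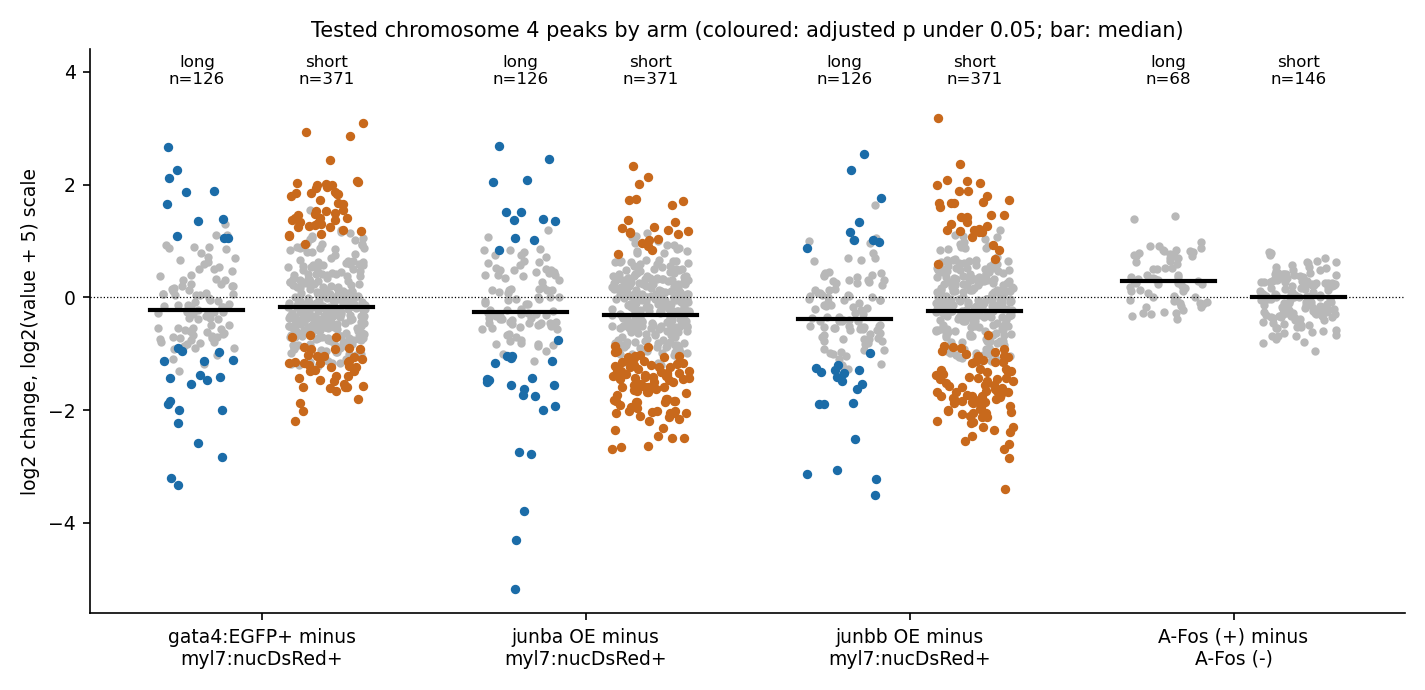
Log2 change (vertical axis, log2(value + 5) scale) of every tested chromosome 4 peak in 4 comparisons, long arm left of short arm, with peaks under an adjusted p of 0.05 in colour and a black bar at the median. The medians of the 3 comparisons in the shared table lie between -0.17 and -0.38, and in the A-Fos comparison no peak passed and the long-arm median was 0.30, beside 0.01 on the short arm. Changes of groups listed at 0 depend on the added 5.

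With junba overexpressed, start-site peaks of the long arm such as ptprb, ms4a17a.14 and zbed4 rose, and peaks without a gene fell, among them 3 neighbours at or near 0. Of 126 tested long-arm peaks 12 rose and 22 fell, and 92 did not pass. Over all tested peaks 26.1% were called, 10.3% higher and 15.9% lower, and on the long arm 9.52% were called higher and 17.5% lower. With junbb overexpressed 9 rose and 19 fell, and 98 did not pass, where 28.8% of all tested peaks were called, 12.6% higher and 16.3% lower, and 7.14% of long-arm peaks were called higher and 15.1% lower. Short-arm peaks more often fell: 22 rose and 94 fell in junba OE, and 34 rose and 87 fell in junbb OE. Some of these peaks reached the mean of 10 only through the group where they were high. They were 13 of the 94 short-arm and 3 of the 22 long-arm falls in junba OE, and none of its rises. In junbb OE they were 12 of 87 falls and 5 of 34 rises on the short arm, and 2 of 19 and 1 of 9 on the long arm. Over all peaks they were 3.17% of rises and 10.7% of falls in junba OE, and 9.38% and 9.98% in junbb OE. These calls come in part with the filter. The median log2 changes were -0.26 on the long arm, -0.32 on the short arm and -0.07 over all peaks in junba OE, and -0.38, -0.24 and -0.02 in junbb OE. With equal totals the medians of all peaks were 0.04 in junba OE and 0.24 in junbb OE, and the long arm gave 14 higher and 16 lower in junba OE and 12 higher and 14 lower in junbb OE. The short arm then gave 21 higher and 70 lower in junba OE and 47 higher and 63 lower in junbb OE. All tested peaks gave 1556 higher and 1637 lower in junba OE and 2661 and 1584 in junbb OE at that scaling. The long-arm count of 34 calls in junba OE was 34 and 26 without junba OE replicate 1 and 2, and 18 and 21 without myl7:nucDsRed+ replicate 1 and 2. The 28 calls in junbb OE were 27 and 16 without junbb OE replicate 1 and 2, and 23 and 22 without either myl7:nucDsRed+ replicate. Both comparisons and that of gata4:EGFP+ share the myl7:nucDsRed+ libraries as control. The overexpressing cells were isolated by density gradient at 50000 cells a reaction, and the myl7:nucDsRed+ cells were sorted at 5000, so these differences and overexpression cannot be told apart.

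Position relative to genes went with the direction of change in these 2 comparisons. Of the 34 tested long-arm peaks within 500 bp of a start site, 9 rose and 3 fell in junba OE, and 6 rose and 1 fell in junbb OE. Of the 64 without a gene, 1 rose and 13 fell in junba OE, and 2 rose and 13 fell in junbb OE. Over all tested peaks near a start site 11.9% rose and 5.52% fell in junba OE and 11.9% rose and 5.52% fell in junbb OE, and over all peaks without a gene 9.11% rose and 23.6% fell in junba OE and 13.7% rose and 24.5% fell in junbb OE. In both comparisons rises outnumbered falls at start sites and falls outnumbered rises away from genes, on the long arm and over all peaks. With equal totals this held too, except that among all peaks without a gene 1198 rose and 1150 fell in junbb OE. The 136 start-site peaks of the short arm were mixed, with 9 rises and 15 falls in junba OE and 13 and 12 in junbb OE, or 8 and 7 and 19 and 6 with equal totals. In gata4:EGFP+ libraries 2 of the 34 start-site peaks rose and 4 fell, and 8 of the 64 peaks without a gene rose and 10 fell, beside 2.57% and 7.78%, and 20.3% and 5.24%, over all tested peaks of each kind. With equal totals the long-arm peaks without a gene gave 8 rises and 4 falls, so their balance turned. All 6904 tested peaks without a gene then gave 1638 rises and 134 falls. At both scalings rises were a smaller part of these calls on the long arm than over all peaks. Of all called rises in gata4:EGFP+ libraries, 44.2% come in part with the filter, whose part in this difference was not tested.

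The start of ptprb (ENSDARG00000076624, chr4:74367692-74368144), a receptor tyrosine phosphatase known from mouse endothelium, had the largest long-arm rise in both comparisons. It held 57 and 75 in junba OE, 57 and 61 in junbb OE and 10 and 3 in myl7:nucDsRed+ libraries. The log2 change was 2.68 ± 0.38 in junba OE (limma adjusted p = 6.40e-05) and 2.55 ± 0.38 in junbb OE (limma adjusted p = 6.57e-05), and the gata4:EGFP+ libraries held 14 and 17. The endothelial marker peaks, given above, were also higher in both groups than in myl7:nucDsRed+ libraries, and their part in this result was not tested. At ms4a17a.14 the values were 43 and 57 in junba OE, 51 and 35 in junbb OE and 6 and 4 in myl7:nucDsRed+ libraries (2.45 ± 0.35 and 2.25 ± 0.35 for junba OE and junbb OE, limma adjusted p = 7.22e-05 and 1.08e-04). A cluster of start sites just inside the long arm also rose. The wide peak at zbed4 (chr4:27129168-27130417), a gene with BED-type zinc fingers, held 363 and 224 in junba OE, 222 and 286 in junbb OE and 134 and 136 in myl7:nucDsRed+ libraries (1.05 ± 0.23 and 0.88 ± 0.23, limma adjusted p = 0.00239 and 0.00633). The neighbouring peaks at creld2, whose mammalian product responds to endoplasmic reticulum stress, and at alg12, a mannosyltransferase of N-glycan assembly, changed by 1.38 ± 0.34 and 1.01 ± 0.32 in junba OE (limma adjusted p = 0.00562 and 0.022) and by 1.16 ± 0.34 and 0.98 ± 0.32 in junbb OE (limma adjusted p = 0.0139 and 0.0229). alg12 was chosen after its values were seen. The junbb OE call at creld2 was lost without either junbb OE replicate or myl7:nucDsRed+ replicate 2.

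The 3 deepest long-arm falls of junba OE lay together. Of 4 peaks at chr4:31328585-31349921, 3 without a gene fell in gata4:EGFP+, junba OE and junbb OE libraries, by different amounts, and the fourth, near si:rp71-5o12.3, did not. In gata4:EGFP+ the call at the first of them named here was lost when any 1 of the 4 libraries was left out, that at the second in all omissions but that of myl7:nucDsRed+ replicate 1, and that at the third without gata4:EGFP+ replicate 1. Their junba OE and junbb OE calls held in every omission, but those of the third come in part with the filter on mean values, as given below. The largest, chr4:31347787-31348654, held 133 and 112 in gata4:EGFP+, 12 and 0 in junba OE, 64 and 18 in junbb OE and 379 and 281 in myl7:nucDsRed+ libraries. Both myl7:nucDsRed+ libraries were above the other 6, and the log2 change was -1.38 ± 0.46 in gata4:EGFP+, -5.17 ± 0.46 in junba OE and -3.06 ± 0.46 in junbb OE (limma adjusted p = 0.0369, 3.21e-07 and 7.20e-05). The next, chr4:31349586-31349921, held 29 and 22 in gata4:EGFP+, 1 and 0 in junba OE, 20 and 1 in junbb OE and 80 and 132 in myl7:nucDsRed+ libraries (limma adjusted p = 0.0146, 1.49e-05 and 1.35e-04 in the same order of groups). The third, chr4:31348989-31349188, was listed at 0 in both junba OE libraries and held 10 and 15 in gata4:EGFP+, 6 and 0 in junbb OE and 59 and 70 in myl7:nucDsRed+ libraries, and reached the mean of 10 needed for testing only through the myl7:nucDsRed+ libraries. The peak near si:rp71-5o12.3 held 55 and 53 in junba OE, 22 and 26 in junbb OE and 2 and 24 in myl7:nucDsRed+ libraries and rose in junba OE (2.05 ± 0.47, limma adjusted p = 0.00314), a call lost without myl7:nucDsRed+ replicate 1, which held the lower of the 2 control values.

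Another wide peak without a gene, chr4:29457809-29459094, was listed at 0 in both junba OE libraries and held 2 and 0 in junbb OE and 34 and 24 in myl7:nucDsRed+ libraries, again with a mean of 10 only through the control. zgc:173615 fell in both, to 27 and 28 in junba OE and 11 and 19 in junbb OE libraries, against 198 and 238 in myl7:nucDsRed+ libraries (-2.77 ± 0.33 and -3.50 ± 0.33, limma adjusted p = 1.63e-05 and 7.67e-07). At ENSDARG00000115819 the values were 235 and 228 in junba OE and 294 and 213 in junbb OE libraries, against 762 and 801 (-1.73 ± 0.23 and -1.62 ± 0.23, limma adjusted p = 4.69e-05 and 4.65e-05). Of the remaining named sites, a peak near si:ch211-215p11.1 rose in junba OE (51 and 122 against 25 and 24, 1.52, lost without junba OE replicate 2). In junbb OE the peak chr4:28272091-28272371 rose (44 and 43 against 12 and 7, 1.76), as did chr4:70759316-70759515 (33 and 28 against 9 and 9, 1.34), whose call was lost when any 1 of the 4 libraries was left out and which had a mean of 10 only through the junbb OE libraries.

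**Figure D4:**
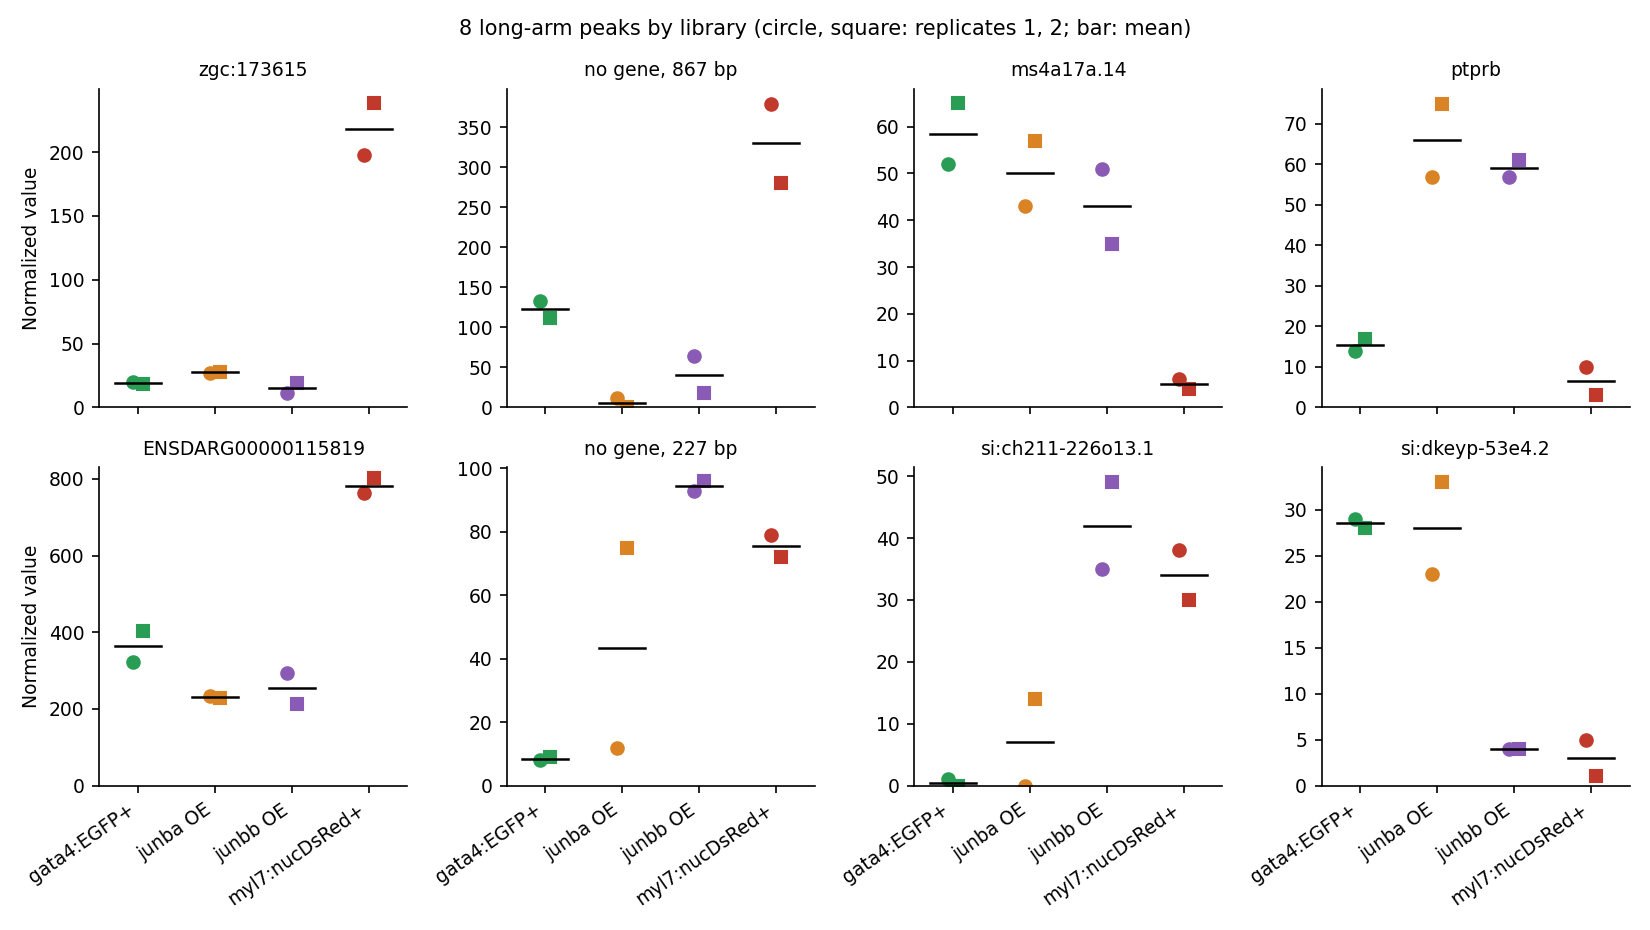
Normalized value (vertical axis) of 8 long-arm peaks in the 8 libraries of the shared table, with 1 point per library and a bar at each group's mean. zgc:173615 holds 11 to 28 in all libraries but those of myl7:nucDsRed+, at 198 and 238, ptprb is high in junba OE and junbb OE, and the 227-bp peak holds 12 in junba OE replicate 1 and 75 in replicate 2.

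On the short arm, the peak of shank3b, the gene of a postsynaptic scaffold protein, rose most in both overexpressing groups, to 101 and 81 in junba OE and 164 and 168 in junbb OE libraries, against 12 and 16 in myl7:nucDsRed+ libraries (2.34 ± 0.31 and 3.18 ± 0.31, limma adjusted p = 4.67e-05 and 1.02e-06). A peak 368 bp from the start of gata3, a zinc finger transcription factor gene, held 40 and 57 in junba OE, 52 and 72 in junbb OE and 9 and 13 in myl7:nucDsRed+ libraries (1.73 ± 0.37 and 2.06 ± 0.37, limma adjusted p = 0.00187 and 3.08e-04). Both groups were above the control at each of these sites, which comes with the choice of named peaks. The largest named fall in junbb OE was at ninj2, an adhesion molecule gene of the ninjurin family, with 20 and 14 in junba OE, 4 and 3 in junbb OE and 92 and 78 in myl7:nucDsRed+ libraries (-2.04 ± 0.36 and -3.40 ± 0.36, limma adjusted p = 4.42e-04 and 2.31e-06). gpr22a fell to 13 and 8 in junba OE and 8 and 6 in junbb OE libraries, against 81 and 82 (-2.50 ± 0.38 and -2.85 ± 0.38, limma adjusted p = 1.44e-04 and 2.75e-05), and podxl, the gene of the sialomucin podocalyxin, to 12 and 2 in junbb OE, against 69 and 54 in myl7:nucDsRed+ libraries (-2.60 ± 0.44, limma adjusted p = 2.21e-04). A strong peak without a gene, chr4:5857512-5858239, held 383 and 459 in gata4:EGFP+, 116 and 90 in junba OE, 226 and 132 in junbb OE and 609 and 484 in myl7:nucDsRed+ libraries. It fell in junba OE (-2.35 ± 0.24, limma adjusted p = 2.30e-06) and in junbb OE (-1.62 ± 0.24, limma adjusted p = 7.28e-05).

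The short arm also carries muscle, vessel and other genes, picked here after their values were seen. A peak 32 bp from the start of lmod2b, a leiomodin of thin filaments in heart muscle, held 38 and 47 in gata4:EGFP+, 29 and 35 in junba OE, 33 and 26 in junbb OE and 100 and 82 in myl7:nucDsRed+ libraries, and fell in all 3 (-1.02, -1.37 and -1.48, limma adjusted p = 0.0269, 0.00325 and 0.00132). A peak of tnni4a, a troponin I gene, held 19 and 21, 33 and 16, 18 and 15 and 41 and 57 in the same order and fell in gata4:EGFP+ (-1.10) and junbb OE (-1.32), with limma adjusted p = 0.0471 and 0.0121. The cardiomyocyte marker peaks were lower in the same groups, and their part in these results was not tested. At the start of vegfab, a vascular endothelial growth factor A gene, the values were 23 and 25, 25 and 6, 12 and 22 and 52 and 67, and the falls in junba OE (-1.82) and junbb OE (-1.58) passed (limma adjusted p = 0.004 and 0.00801). The peak of elk3, an ETS transcription factor gene, rose in all 3, with 104 and 82 in gata4:EGFP+, 87 and 63 in junba OE, 95 and 114 in junbb OE and 42 and 30 in myl7:nucDsRed+ libraries (limma adjusted p = 0.00356, 0.0142 and 6.73e-04). A peak 3883 bp from dre-let-7b, of the let-7 microRNA family, fell in all 3, with 83 and 85, 54 and 81, 56 and 67 and 160 and 164 in that order (limma adjusted p = 0.0166, 0.00169 and 5.80e-04).

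Between the 2 overexpressing groups, no chromosome 4 peak passed limma's test, and 0.088% of all tested peaks did, 0.0541% higher and 0.0338% lower in junba OE. On the long arm 27 of 126 peaks, or 21.4%, had an unadjusted p under 0.05, 17 higher and 10 lower in junba OE, and on the short arm 36 of 371 had one, or 9.70%, where 10.1% of all tested peaks did. With equal totals the long-arm balance turned, to 8 higher and 16 lower. Over all tested peaks it moved the same way, from 596 higher and 898 lower to 263 and 1364. Higher peaks thus stayed a larger part of such peaks on the long arm than over all peaks. The smallest adjusted p on the long arm was at chr4:31347787-31348654, with 12 and 0 in junba OE and 64 and 18 in junbb OE libraries (-2.11 ± 0.46, limma adjusted p = 0.0935). The short-arm one was at ninj2, with 20 and 14 in junba OE and 4 and 3 in junbb OE libraries (1.36 ± 0.36, limma adjusted p = 0.156). Several long-arm sites split the 2 junba OE libraries instead. At the 227-bp peak chr4:42760604-42760831 they held 12 and 75, beside 93 and 96 in junbb OE and 8 and 9 in gata4:EGFP+ libraries. At si:ch211-226o13.1 they held 0 and 14, beside 35 and 49 in junbb OE and 1 and 0 in gata4:EGFP+ libraries, and at si:dkey-16p6.1 1 and 24, beside 15 and 20 and 0 and 0. At each, junba OE replicate 1 was near the gata4:EGFP+ libraries and replicate 2 was higher. At si:dkeyp-53e4.2 both junba OE libraries, at 23 and 33, were with the gata4:EGFP+ libraries, and both junbb OE libraries, at 4 and 4, with the myl7:nucDsRed+ libraries. Without junba OE replicate 1 the comparison called 14 long-arm peaks, and without replicate 2 it called 4, so this count depends on which junba OE library is used. Peaks that were at 2 or less in 1 library and 30 or more in another made up 10% of long-arm peaks, beside 9.77% on the short arm and 8.95% on other chromosomes.

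In A-Fos (+) cardiomyocytes most long-arm peaks were somewhat higher than in A-Fos (-) cells, led by the wide peaks, but none passed limma's test. No peak was called on either arm, of 68 and 146 tested, nor among all 6012 tested (0%). At an unadjusted p under 0.05 there were 11 long-arm peaks, or 16.2%, all higher, and 4 short-arm peaks, or 2.74%, where 3.33% of all tested peaks had one. The groups did not overlap at 7 long-arm peaks, 10.3% of those tested, all higher in A-Fos (+), where 6.92% of all tested peaks had no overlap. The median log2 change was 0.30 on the long arm and 0.01 on the short arm, and 50 of 68 long-arm peaks, or 73.5%, were above 0, beside 49.4% of all peaks. Left out 1 library at a time, the long-arm median ran from 0.16 to 0.40. With equal totals it was 0.06, beside -0.24 on the short arm and -0.24 over all peaks, and 58.8% of long-arm peaks were above 0. Then 2.94% of long-arm peaks had an unadjusted p under 0.05, 2 higher and 0 lower in A-Fos (+), beside 6.69% of all peaks, 26 higher and 376 lower. Counted in either direction, the long arm's larger share of such peaks thus turned into a smaller one, but nearly all of those over all peaks were lower. The long arm held 3.01, 2.84 and 2.47% of the nuclear values in A-Fos (+) and 2.55, 1.79 and 2.07% in A-Fos (-) libraries, with 1 A-Fos (-) library inside the range of A-Fos (+). Each A-Fos (+) library was above the A-Fos (-) library of its own number, but the labels do not say that these belong together. The difference of 0.635 points did not pass the two-sided exact permutation test (p = 0.2, where 3 against 3 libraries allow no p under 0.1), nor did that of 0.443 points without the widest peak (exact p = 0.1). With the boundary at 30 Mb the difference was 0.0767 points (exact p = 0.5).

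Most wide peaks had a log2 change above 0 in this comparison, and none passed. All 15 tested long-arm peaks of 800 bp or more were above 0, with a median of 0.52, and so did 255 of the 280 wide peaks on other chromosomes, with a median of 0.53, and 8 of 10 on the short arm, with a median of 0.33. With equal totals it was 14 of 15, 223 of 280 and 6 of 10, with medians of 0.24, 0.27 and 0.08. For peaks under 800 bp the median was 0.21 on the long arm (53 peaks), -0.01 on the short arm (136 peaks) and -0.02 on other chromosomes (5518 peaks). With equal totals these medians were -0.015, -0.249 and -0.258, and 49.1% of the long-arm peaks under 800 bp were above 0. The sign on the long arm thus depends on the scaling. Wide peaks without a gene on other chromosomes held 40.1, 34.5 and 34.7% of the nuclear values in A-Fos (+) and 31.0, 20.2 and 27.8% in A-Fos (-) libraries, and their part in the long-arm values was not tested. The mitochondrial peak held 85.2, 92.0 and 94.2% of all values in A-Fos (+) and 79.9, 88.0 and 87.1% in A-Fos (-) libraries.

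**Figure D5:**
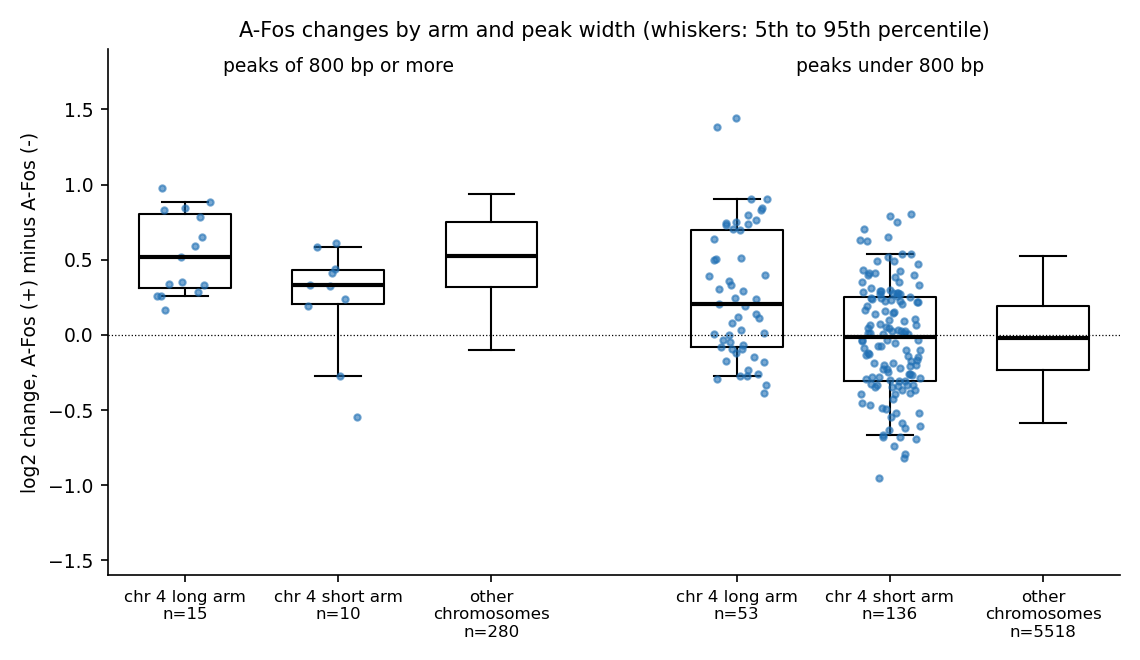
Log2 change between A-Fos (+) and A-Fos (-) libraries (vertical axis) of tested peaks of 800 bp or more and under 800 bp, on the 2 arms of chromosome 4 and on the other chromosomes. Boxes span the quartiles with the median as a line, whiskers run from the 5th to the 95th percentile, and points are single peaks. The wide peaks have medians of 0.52 on the long arm and 0.53 on other chromosomes.

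The run of wide peaks at chr4:28552868-28617097 had a summed value of 8465, 5929 and 4367 in A-Fos (+) and 4785, 2204 and 3544 in A-Fos (-) libraries, so that A-Fos (+) replicate 3 lay below A-Fos (-) replicate 1. Its first peak held 1717, 1281 and 987 in A-Fos (+) and 949, 448 and 664 in A-Fos (-) libraries (0.98 ± 0.41, limma adjusted p = 1), without overlap. The miR-430 peaks summed to 477, 1176 and 788 in A-Fos (+) and 334, 489 and 620 in A-Fos (-) libraries, which overlapped. The smallest limma p on the long arm was at chr4:48511482-48511830, a 348-bp peak without a gene, with 14, 40 and 29 in A-Fos (+) and 9, 8 and 3 in A-Fos (-) libraries (1.44 ± 0.44, limma adjusted p = 1). All 3 A-Fos (+) libraries were above all A-Fos (-) libraries there, as they were at the 5S ribosomal RNA peak, with 90, 108 and 81 in A-Fos (+) and 46, 35 and 76 in A-Fos (-) libraries (0.83 ± 0.28, limma adjusted p = 1). The 5S peak was picked after its values were seen. The smallest short-arm p was at ing3, the gene of a chromatin reader of the ING family, with 30, 30 and 32 in A-Fos (+) and 60, 48 and 49 in A-Fos (-) libraries (-0.68 ± 0.29, limma adjusted p = 1), lower in all 3 A-Fos (+) libraries. At 2 long-arm start-site peaks the groups overlapped: zbed4 held 74, 92 and 49 in A-Fos (+) and 62, 82 and 64 in A-Fos (-) libraries (0.01 ± 0.27), and rab3ip, the gene of an exchange factor for Rab8, held 96, 81 and 63 and 73, 86 and 130 (-0.23 ± 0.27). Replicates spread more on the long arm, where the median within-group SD of log2 values was 0.52 in the A-Fos table, beside 0.38 on the short arm and 0.36 elsewhere.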

How the data were processed

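ATAC-seq was measured in 14 libraries of adult zebrafish cardiomyocytes. Per the submitters' processing notes, the genome was GRCz11 (danRer11), and the tools were, in no stated order, DESeq, DESeq2 1.18.1, MACS2, Trimmomatic 0.36, Picard 2.18.16, deepTools 2.5.7 and STAR 2.6.1d. Mapping filters, the offset for the transposase cut and the treatment of reads from repeats, which bear on the long arm, are not given in the sources used here. Both deposited tables hold a score per peak and library: per the file headers and names, background-corrected reads divided by size factors and rounded, separately for each table, so values were compared only within a table. The authors also deposited the fraction of each peak that overlaps a gene body, and the distance to 1 assigned start site. Coordinates are printed as deposited, since no source says if they start at 0 or 1. The values carry no raw depth, and no count model was fitted.

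Arms were split at 27 Mb, and 30 Mb was an alternative. Gene symbols missing from the authors' annotation were taken from a table of Ensembl IDs for 17 long-arm and 19 short-arm peaks of the shared table. Peaks with a mean of at least 10 were tested on log2(value + 5) with limma 3.58.1 in R 4.3.3 (trend and robust moderation, two-sided, Benjamini-Hochberg over all tested peaks of a table, called under 0.05), without the mitochondrial peak. All 8 libraries of the shared table entered 1 fit, and 3 against 3 the A-Fos fit. A log2 change on this scale understates that of low peaks. The fit was also run on simulated counts of equal depth and a common spread, unlike these libraries, and no result here rests on that run. Shares of signal were compared with exact permutation tests over libraries, for 5 pairs and 1 test of 4 groups. Runs are 4 or more peaks with gaps of at most 20 kb, most of them without a gene or with small RNA genes, and have no test of their own. Python 3.11.15, NumPy 2.4.6, SciPy 1.17.1, pandas 2.3.3 and Matplotlib 3.10.9 were used.

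Named peaks are the highest in mean value on each arm, up to 5 largest called changes without overlap in each direction, comparison and arm, or the smallest adjusted p where none was called, the highest peaks of each gene class, and those next to the boundary. A lack of overlap at a named called change thus comes with the choice. Against myl7:nucDsRed+, groups did not overlap at 61.2% of all tested peaks for gata4:EGFP+, 58.5% for junba OE and 63.5% for junbb OE. The members and lists were chosen with earlier results of these data known. The labels do not say whether the replicates of a group came from separate animals beyond the pools, so p-values measure the spread between these libraries, which may be technical.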

Additional observations from a re-analysis of the deposited data

How the results depend on the processing

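The replicate numbers were not used to pair the libraries. Same-numbered A-Fos libraries correlated at 0.280, 0.256 and 0.0823 over all tested peaks, the third too low for the rule used. Those of the shared table correlated at -0.0323 to 0.0204. Each A-Fos (+) library nonetheless correlated best with the A-Fos (-) library of its own number, so whether these belong together is not known. The same-numbered A-Fos libraries correlated at 0.550, 0.558 and -0.0522 on the long arm and at 0.230, 0.363 and 0.0310 on the short arm. None of these is a correlation of the plain values: the widest long-arm peak, for example, was far above the median peak in every library of the shared table. They do not measure how alike the peak profiles of libraries are. The share tests took all libraries as unpaired. With a replicate block, the long-arm calls were 29 for gata4:EGFP+, 34 for junba OE and 28 for junbb OE against myl7:nucDsRed+, 1 for junba OE against junbb OE and 0 for A-Fos, and the short-arm calls were 84, 115, 121, 0 and 0. A pseudocount of 1 gave 17 long-arm calls for gata4:EGFP+. An arm boundary at 30 Mb gave 16 for junbb OE and turned the difference in long-arm share between junba OE and junbb OE to -0.0476 points. That boundary also brought the difference to -0.0593 points for gata4:EGFP+, -0.137 for junba OE and -0.0896 for junbb OE against myl7:nucDsRed+, and to 0.0767 for A-Fos. Left out 1 library at a time, where a lone library is assumed to vary like the others, the calls ran from 11 to 19 on the long and 18 to 41 on the short arm for gata4:EGFP+, 18 to 34 and 57 to 128 for junba OE, 16 to 27 and 72 to 93 for junbb OE, and 0 to 14 and 0 to 4 between junba OE and junbb OE. The short-arm count for gata4:EGFP+, 87 with all libraries, fell by over 1.5 times whichever library was left out. For the 2 overexpressing groups against myl7:nucDsRed+, only myl7:nucDsRed+ replicate 2 for junba OE, and that library or junbb OE replicate 2 for junbb OE, moved it so far (57, 77 and 72). The difference in long-arm share ran from -0.75 to 0.181 points for junba OE, reversed without replicate 1 of junba OE, and from -0.0441 to 0.887 between junba OE and junbb OE, reversed without replicate 2. For these the cause was not tested. No other direction of a long-arm share turned. Of the named peaks' log2 changes under the alternatives, 548 kept their side of the threshold, 28 lost the call, 2 gained it and none changed sign. Low values limit the depth of the falls, since a library of few distinct values cannot tell 0 from a small number.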
